A study of Mus musculus with 50 samples.

Results

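The genes described here encode the contractile machinery of muscle and proteins that belong to heart muscle. They were chosen by symbol alone: myosin heavy and light chains, troponins, muscle actins, tropomyosins, calponins, ryanodine receptors, calsequestrins, myozenins, muscle creatine kinases, popeye proteins and single genes such as Des, Ldb3, Tcap, Pln and Tagln. Of 13509 genes that the platform annotation gave by 1 symbol, 53 met this rule, and Nppa, which it also names, had no spot. By their known sites of expression they were sorted into 15 genes of the heart, 13 of skeletal muscle, 5 shared by both striated muscles, 5 of smooth muscle and 15 with broad expression. The heart class also holds genes of slow skeletal muscle, such as Tnnc1 and Myl3, so it is not confined to the heart. RNA from mouse airways had been hybridised against a reference on 50 spotted arrays, in 10 groups of 5. Of these, 5 groups were tracheal perfusate, whose RNA was amplified according to most of the labels, and 5 were whole lung. In each tissue 3 groups carried interleukin-13 (IL-13), the cytokine that drives mucus production and airway reactivity in allergic asthma. They were Stat6+/-, Stat6-/-, and Stat6-/- with the mark Epi+. The remaining groups were given ovalbumin (OVA), the allergen, or saline (PBS). Stat6 is the transcription factor through which IL-13 acts. In mouse lines of this kind Epi+ marks a transgene giving Stat6 back to the airway epithelium alone, but the labels give only the mark, and they name no promoter. No source used here gives strain, age or how IL-13 was supplied. Whether each array was a different animal is not stated, and the p-values reflect spread between arrays that may be technical.

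Striated muscle contracts when calcium released through ryanodine receptors binds troponin on the thin filament and lets myosin pull on actin. Heart and skeletal muscle build this apparatus from different members of the same gene families, whereas smooth muscle has no troponin and is switched by phosphorylation of the myosin light chain. In the lung, smooth muscle surrounds airways and vessels, and in the mouse a sleeve of heart muscle also surrounds the pulmonary veins.

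Values are log2 ratios to the reference with each array's median set to 0, and are called levels below. A level compares samples for 1 gene and not 1 gene with another. The direction of the ratio was not given in the sources used here. Sample over reference is the likely one, since the level of Il13 was 1.77 ± 0.44 (SD, n = 5) in IL-13 Stat6+/- perfusate and 0.04 ± 0.34 in PBS perfusate. The Stat6 spot read -0.86 ± 0.44 in Stat6+/- lung and -0.67 ± 0.20 in Stat6-/- lung. Where it lies relative to the deleted stretch was not known, so it does not check the genotype. Arrays held 15693 to 18655 spots with a value. Lung arrays were hybridised against reference pool 3 or 4 in the IL-13 groups and against 1 other pool, on another platform, in the OVA and PBS groups. Pool 3 or 4 was therefore a block in the fit, as was the reference preparation in perfusate. Signal of Y-linked genes was low on lung Stat6-/- arrays 1 and 2 and on perfusate Stat6-/- arrays 10, 11 and 12, so sex may be partly mixed with genotype. Perfusate Epi+ array 16 was low as well, with Eif2s3y at -1.07, and was not among the arrays left out for low Y-linked signal. The X-linked gene Xist read -0.09, 0.91 and -0.33 on perfusate Stat6-/- arrays 10, 11 and 12. It read -2 on Epi+ array 16 and from -5.7 to -1.36 on the other perfusate arrays. In lung it read 7.35 on Stat6-/- array 1, had no value on array 2 and ran from -3.15 to 2.07 elsewhere. Sex was not tested. Differences were tested with limma over all features, and a gene was called at a Benjamini-Hochberg adjusted p below 0.05. In whole tissue, fewer cells of a type and less RNA per cell cannot be told apart.

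The first comparison asked what Stat6 changes in the lung while IL-13 is present. In whole lung with IL-13, genes of heart muscle were lower in Stat6+/- than in Stat6-/- animals. Of 49 members tested, 7 fell and 0 rose, against 1.71% of all 15116 features called lower and 3.3% called higher. The 7 were Popdc2, Tnnc1, Tnnt2, Myl4 and Myl3 of the heart class and Ckm and Ckmt2 of the shared striated class. Tnnc1 and Myl3 are also genes of slow muscle. The heart genes had a median difference of -1.23, with 13 of 14 below 0, and the shared striated genes one of -1.39, with 4 of 4 below 0. The median of all features was -0.04. The 11 skeletal genes had a median of -0.44 with 0 called, the 5 smooth muscle genes one of -0.07 with 0 called, and the 15 broadly expressed genes one of -0.02 with 0 called. At an unadjusted p below 0.05 in limma, 1 skeletal gene (Myl1), 0 smooth muscle genes and 5 broadly expressed genes passed, against 19.4% of all features. Myl2, Tcap, Myh2 and Myh8 had too few values to be tested. Before centring, the array medians of the Stat6+/- group lay lower by -0.37 than those of the Stat6-/- group, and all differences here are relative to that shift. The count of 7 became 2 without the reference block or without the arrays low in Y-linked signal, and 1 with the replicate number as a block or with only these groups in the fit. Popdc2 was called in all 19 alternatives, with adjusted p from 2.32e-05 to 0.0169, and the heart median stayed between -1.60 and -0.70. Leaving out 1 array ended the call for Ckm without Stat6-/- array 2 (adjusted p = 0.0531), for Ckmt2 without Stat6-/- array 6 (0.0589), for Myl4 without Stat6+/- array 3 (0.0525) and for Myl3 in 8 of 10 fits.

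Popdc2, a membrane protein of heart muscle cells, had the smallest adjusted p among the members. Its level on the 5 Stat6+/- arrays was -2.04, -1.88, -2.91, -2.29 and -2.41, and on the 5 Stat6-/- arrays -0.48, -0.61, -0.49, -0.39 and -0.43. Every Stat6+/- array lay below every Stat6-/- array, and the Stat6-/- arrays differed little among themselves. The difference was -1.83 ± 0.18 (SE), or 3.54-fold lower, with an adjusted p of 0.000101. Within reference pool 3 it was -2.11 and within pool 4 -1.64.

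The thin filament genes followed. Tnnc1 encodes the troponin C of heart and slow muscle, the subunit that binds calcium. Its levels were -0.33, -1.16, -0.54, -0.85 and -1.56 in Stat6+/- lung and 1.38, -0.17, 0.16, 1.61 and 0.35 in Stat6-/- lung. The groups did not overlap, as for 2.27% of all features in this direction, and the difference was -1.55 ± 0.30 with an adjusted p of 0.00922. Tnnt2, the cardiac troponin T that ties the complex to tropomyosin, read -0.14, -0.49, -0.50, -1.15 and -1.62 in Stat6+/- lung. In Stat6-/- lung it read 0.98, -0.43, -0.05, 1.05 and 0.67. Here Stat6-/- array 2 lay inside the range of the Stat6+/- group, and the difference was -1.22 ± 0.25 with an adjusted p of 0.0139. Within pools 3 and 4 the differences were -1.05 and -1.89 for Tnnc1 and -0.82 and -1.49 for Tnnt2. Tnni3, the cardiac troponin I, had a difference of 0.30 and was not called.

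The light chains of cardiac myosin were lower as well. Myl4, the atrial essential light chain, read -0.08, -0.99, -0.51, -1.41 and -1.90 in Stat6+/- lung and 0.91, -0.31, -0.06, 1.75 and 0.43 in Stat6-/- lung. Stat6+/- array 1 overlapped the lowest Stat6-/- arrays. The difference was -1.52 ± 0.34 with an adjusted p of 0.0201. Myl3, the essential light chain of ventricle and slow muscle, fell by 1.23 ± 0.33 with an adjusted p of 0.0485. Its groups overlapped, because Stat6-/- arrays 2 and 4 were at -1.08 and -1.39 and the other Stat6-/- arrays between 0.61 and 0.66. Arrays 2 and 4 were the Stat6-/- arrays on reference pool 3, and the others were on pool 4. Within pools 3 and 4 the differences for Myl3 were -0.56 and -1.67. Myl7, the atrial regulatory light chain, had a difference of -1.75 ± 0.49 and missed the threshold at an adjusted p of 0.0592. Its Stat6+/- levels were 0.74, -1.30, -0.48, -0.52 and -1.54 and its Stat6-/- levels 2.33, 0.38, -0.30, 1.25 and 2.00. Myh6, the alpha myosin heavy chain of the mouse heart, had -1.46 ± 0.43 at an adjusted p of 0.0704. Actc1, the cardiac actin, had -0.92 at 0.190.

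Both muscle creatine kinases were lower. Ckm encodes the cytosolic enzyme, which regenerates ATP at the filaments. It read -1.03, -0.82, -2.68, -1.98 and -2.53 in Stat6+/- lung and -0.17, -0.84, -1.30, 0.05 and -0.76 in Stat6-/- lung. The difference was -1.20 ± 0.26 with an adjusted p of 0.0187, and the groups overlapped. Ckmt2, the mitochondrial enzyme of striated muscle, read -0.17, 0.51, -1.82, -1.74 and -2.57 in Stat6+/- lung and 0.93, -0.61, -0.24, 1.21 and 1.49 in Stat6-/- lung. Stat6+/- arrays 1 and 3 lay inside the Stat6-/- range, and the difference was -1.71 ± 0.38 with an adjusted p of 0.0203. Ldb3, a protein of the Z disc, had -1.57 ± 0.70 at an adjusted p of 0.244, and Des, the muscle intermediate filament protein, had -0.44.

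Smooth muscle genes gave another picture. Tagln, an actin-binding protein of smooth muscle, read 0.62, 1.10, 1.07, 0.10 and -0.02 in Stat6+/- lung and 0.43, -0.01, 0.21, 0.93 and 0.21 in Stat6-/- lung. Acta2, the smooth muscle actin, read 0.02, 0.01, -0.26, -0.55 and -0.58 against -0.42, -0.74, -0.06, 0.32 and -0.09. For both genes the groups overlapped. Myh11, the smooth muscle myosin heavy chain, read 0.19, -0.07, 0.10, -0.72 and -0.48 against 0.18, -0.16, -0.27, -0.09 and 0.08. The 5 smooth muscle genes had differences from -0.17 to 0.22, and 0 were called. Another 15 smooth muscle genes, which the rule does not name, were tested. They had a median of -0.04 and differences from -1.46 to 0.76, with 1 called lower.

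**Figure D1:**
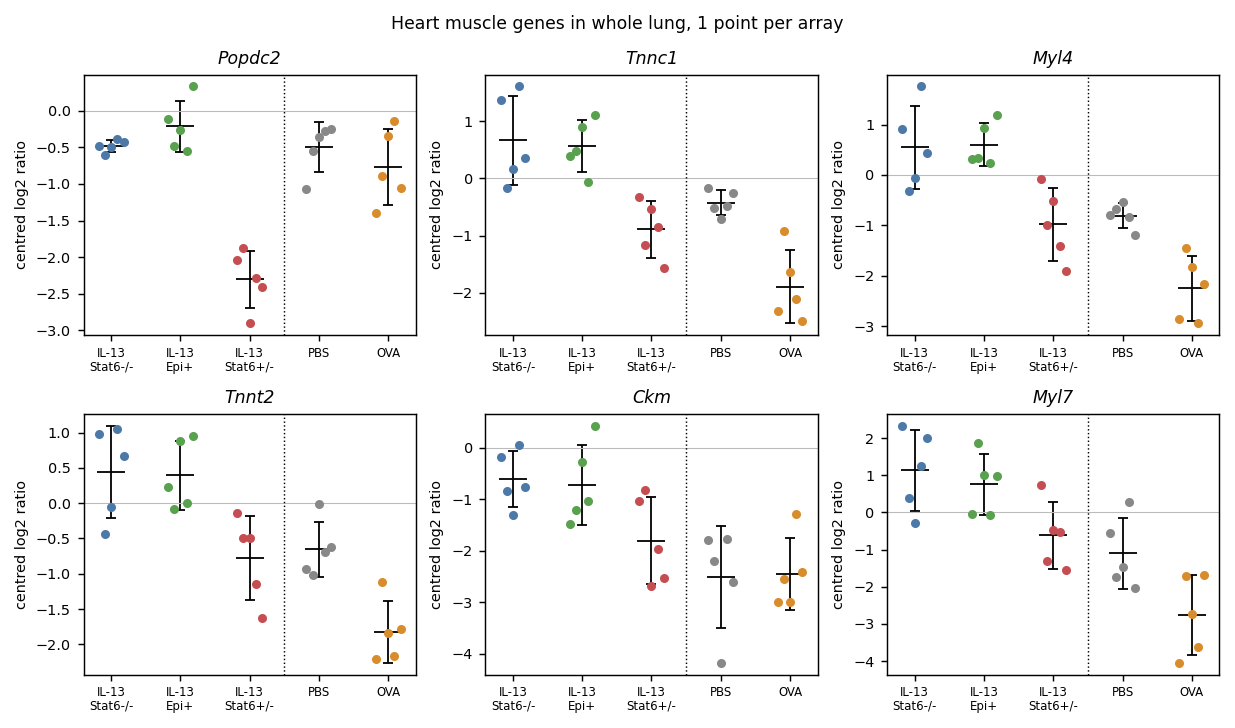
Levels of Popdc2, Tnnc1, Myl4, Tnnt2, Ckm and Myl7 (log2 ratio to the reference, centred) in the 5 whole lung groups, with 1 point per array, the bar at the mean and whiskers of 1 SD (n = 5). The dotted line separates groups on different platforms and reference pools, across which levels are not compared. The Stat6+/- arrays of Popdc2 lie at -1.88 and below, and the OVA arrays of Tnnc1 and Myl4 lie below their PBS arrays.

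The promoters of the 5 heart genes that fell are printed, with that of Myl7, which missed the threshold, because these genes had differences in the same direction. They come from RefSeq on GRCm38.p6 and run from 250 bases before to 50 after the start of transcription. Of 53 members 45 were matched, with 55 promoters in all. Both strands were searched for the CArG box, which binds serum response factor, for the site of MEF2, for CATTCC, the core bound by TEAD factors, and for TNAAGTG, the core bound by NKX2-5. Capitals mark matches, and no matches overlapped. Popdc2 lies at chr16:38361940-38362239 on the plus strand, Tnnc1 at chr14:31208062-31208361 on the plus strand, Tnnt2 at chr1:135836084-135836383 on the plus strand, Myl4 at chr11:104550413-104550712 on the plus strand, Myl3 at chr9:110763428-110763727 on the plus strand and Myl7 at chr11:5898733-5899032 on the minus strand.
Popdc2: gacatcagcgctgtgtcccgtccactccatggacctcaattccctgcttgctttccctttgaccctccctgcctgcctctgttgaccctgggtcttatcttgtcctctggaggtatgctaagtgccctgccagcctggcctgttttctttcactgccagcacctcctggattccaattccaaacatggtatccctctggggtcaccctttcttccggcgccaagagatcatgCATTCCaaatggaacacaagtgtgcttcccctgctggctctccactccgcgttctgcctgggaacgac
Tnnc1: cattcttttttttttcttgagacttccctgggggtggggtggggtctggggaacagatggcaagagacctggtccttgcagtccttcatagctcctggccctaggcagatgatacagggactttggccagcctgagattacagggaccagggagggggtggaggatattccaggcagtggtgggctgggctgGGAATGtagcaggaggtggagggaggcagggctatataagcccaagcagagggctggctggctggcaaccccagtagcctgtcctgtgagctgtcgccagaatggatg
Tnnt2: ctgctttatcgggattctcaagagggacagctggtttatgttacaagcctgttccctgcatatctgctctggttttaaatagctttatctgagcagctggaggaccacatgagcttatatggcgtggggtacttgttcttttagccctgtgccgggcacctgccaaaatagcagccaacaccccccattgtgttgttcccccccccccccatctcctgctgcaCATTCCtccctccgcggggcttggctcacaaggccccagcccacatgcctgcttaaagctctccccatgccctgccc
Myl4: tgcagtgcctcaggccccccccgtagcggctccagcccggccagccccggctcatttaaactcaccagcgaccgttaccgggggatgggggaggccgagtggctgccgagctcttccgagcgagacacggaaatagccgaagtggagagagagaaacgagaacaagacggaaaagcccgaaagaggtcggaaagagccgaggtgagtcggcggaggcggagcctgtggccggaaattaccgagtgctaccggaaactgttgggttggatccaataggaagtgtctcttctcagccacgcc
Myl3: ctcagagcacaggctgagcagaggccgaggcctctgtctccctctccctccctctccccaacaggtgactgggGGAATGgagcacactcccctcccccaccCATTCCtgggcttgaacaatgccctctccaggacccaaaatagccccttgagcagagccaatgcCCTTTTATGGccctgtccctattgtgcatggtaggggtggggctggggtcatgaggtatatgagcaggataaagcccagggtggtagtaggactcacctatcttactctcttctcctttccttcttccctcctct
Myl7: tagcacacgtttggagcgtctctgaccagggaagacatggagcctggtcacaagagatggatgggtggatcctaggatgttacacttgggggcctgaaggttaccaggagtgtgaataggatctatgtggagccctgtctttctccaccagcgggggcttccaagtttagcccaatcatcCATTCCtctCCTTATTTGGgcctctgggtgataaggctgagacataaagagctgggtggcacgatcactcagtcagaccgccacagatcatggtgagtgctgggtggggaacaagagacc
A CArG box lay in 8 of the 55 member promoters (14.5%) and in 1.63% of all 32851 promoters of this length. Ldb3 was counted at both of its listed starts, whose windows overlap. Of the 7 genes that fell, Myl3 held one. CATTCC lay in 14 member promoters (25.5%) and in 14.7% of all, and in Popdc2, Tnnc1, Tnnt2 and Myl3 among the genes that fell. Tnnt2 has 2 listed starts, and the one not printed, at chr1:135836739-135837038, held no CATTCC. The MEF2 site lay in 3 member promoters (5.45%) and in 3.19% of all, and TNAAGTG in 3 (5.45%) and in 11.5%. These matches describe the letters of these windows only.

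In the comparison with Epi+, in which the labels put the same Stat6+/- arrays against Stat6-/- animals with the mark, 6 of 49 members fell and 0 rose, against 1.08% of all features called lower. Popdc2 read -0.11, -0.48, -0.27, -0.54 and 0.33 in Epi+ lung, all above the highest Stat6+/- array. The difference was -2.17 ± 0.19, or 4.49-fold lower in Stat6+/- lung, with an adjusted p of 4.84e-05. Tnnc1 at -1.59 ± 0.30 (adjusted p = 0.0133), Myl4 at -1.73 ± 0.34 (0.0163) and Tnnt2 at -1.34 ± 0.26 (0.0141) did not overlap between these groups either, against 2.12% of all features. Ckm fell by 1.32 ± 0.27 (0.0182) and Myh6 by 1.72 ± 0.43 (0.0468), both with overlapping groups. Tnnc1 in Epi+ lung read 0.39, 0.49, 0.90, -0.05 and 1.10, and Myl4 read 0.31, 0.34, 0.93, 0.23 and 1.19. Tnnt2 read 0.22, -0.08, 0.88, 0.01 and 0.95. All 3 genes were within the range of the Stat6-/- arrays in Epi+ lung. Without Epi+ array 6 Ckm missed the threshold (adjusted p = 0.0527), and Myh6 missed it in 8 of 10 fits that left out 1 array. The heart genes had a median difference of -1.19 with 14 of 14 below 0, and the smooth muscle genes one of -0.03. Both comparisons share the Stat6+/- arrays, so they are not independent. The count of 6 became 3 on values that were not centred, 2 with only these groups in the fit, and 1 after quantile normalization, without the reference block or with the replicate number as a block.

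Between Epi+ and Stat6-/- lung, 0 of 49 members were called by limma, against 0.0794% of all features. At an unadjusted p below 0.05, 1 member (Tnni3, 0.91 ± 0.33, adjusted p = 0.983) and 4.19% of features passed. The heart genes had a median difference of 0.13. Mean levels over the heart genes were 0.22 ± 0.58 (SD, n = 5) in Epi+, 0.12 ± 0.48 in Stat6-/- and -0.90 ± 0.39 in Stat6+/- lung. The first groups spread widely, from -0.68 to 0.86 and from -0.55 to 0.61, and the Stat6+/- arrays ran from -1.16 to -0.21. The difference between reference pools was not removed from these means, so their spread holds it. Epi+ had 3 arrays on pool 3 and 2 on pool 4, and the other groups had 2 and 3.

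**Figure D2:**
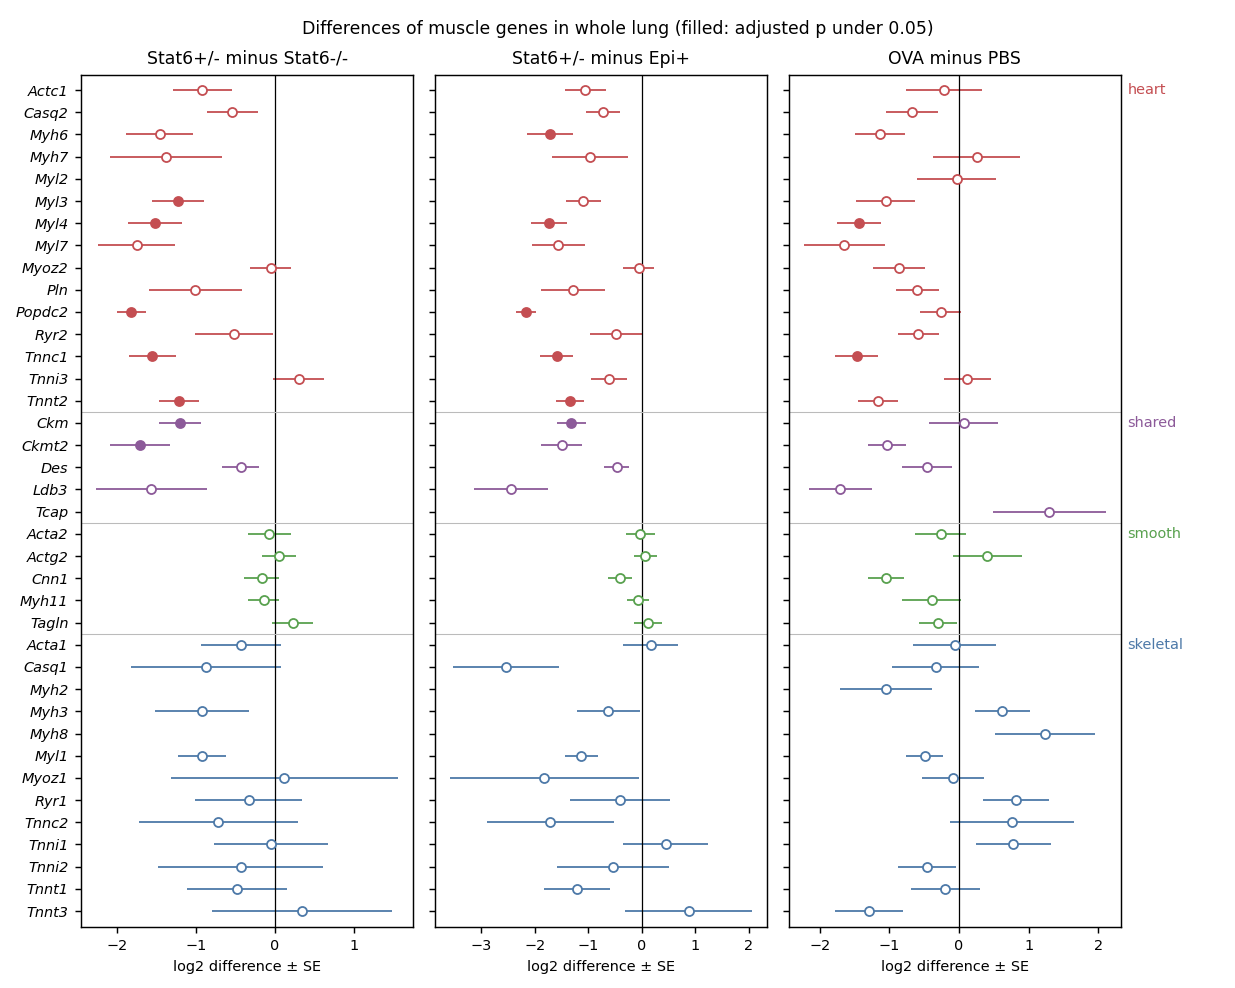
Log2 difference (x axis) with its standard error for each heart, shared striated, smooth and skeletal muscle gene (rows). The 3 lung comparisons are Stat6+/- minus Stat6-/-, Stat6+/- minus Epi+ and OVA minus PBS. Filled points passed an adjusted p of 0.05. Filled points lie to the left of 0 and belong to heart and shared striated genes, and no smooth muscle or skeletal gene is filled.

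Skeletal muscle genes varied widely between arrays of 1 group. Acta1, the skeletal actin, ran from -5.89 to -2.27 in Stat6+/- lung, from -5.68 to -1.62 in Stat6-/- lung and from -6.39 to -2.70 in Epi+ lung. In all 3 groups each array on reference pool 4 lay above each array on pool 3, by 2.48 on average, and the same held for others, among them Tnnc2 (2.82), Myl1 (1.28) and Ckm (1.14). Since both pools appear in every IL-13 lung group, with 2 and 3 arrays each, this pool difference stands beside the genotype and was removed by the block. Its median over 14 heart genes was 0.79 and over 10 skeletal genes 0.96, against 0.04 over all features. It was 1.24 over 4 shared striated, 0.53 over 5 smooth muscle and 0.40 over 14 broadly expressed genes. The shift was therefore not confined to striated muscle genes. Some members went the other way on average, among them Myh7 (-2.18) and Tnni1 (-1.66). How many of all features separated the pools in every group was not counted. The reference is 1 side of each ratio, and its RNA content was not tested. Within-group spread in IL-13 lung was widest for Myl2 (SD 3.13), Myh2 (2.70), Myl12a (2.41), Tnnc2 (2.29), Myoz1 (1.93) and Tnni2 (1.90), where Popdc2 had 0.31. This spread was taken about the group means and still holds the pool difference. The Tnnc2 level on Stat6+/- array 4, -9.06, came from the lowest ratio deposited, and its other Stat6+/- arrays lay between -2.81 and -1.02.

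Markers of other lung cells moved beside these genes. The endothelial genes Kdr and Tek fell by 1.23 and 1.35 in Stat6+/- against Stat6-/- lung, which made 2 of 6 in that list called, and the mean of the list ran from -1.12 to -0.40 in Stat6+/- and from -0.38 to 0.09 in Stat6-/- lung. Alas2 of red cells fell by 1.48. The alveolar type 2 cell genes Sftpa1 and Sftpd rose by 0.90 and 1.63, as 2 of 4 listed. The 7 airway epithelial genes had a median of 0.66 with 6 above 0. Among lists of neighbouring tissues, 1 of 6 brown fat genes and 1 of 6 cartilage genes were called higher, against 3.3% of all features. The thymus list had 0 of 8 called. Against Epi+ lung Kdr, Tek and Alas2 fell by 1.24, 1.15 and 1.23, and Sftpd rose by 1.03. The part of these cells and tissues in the heart gene difference was not tested. Striated muscle genes that the rule does not name, 35 of them tested, had a median of -0.45 and 4 fell (Csrp3, Ankrd1, Cox6a2 and Pgam2, by 0.79 to 1.10). Atp2a1, the calcium pump of fast skeletal muscle, instead rose by 4.99 ± 0.39 (adjusted p = 1.14e-05), and Mb, myoglobin, by 1.15. Atp2a1 also rose after OVA in lung, by 5.03, and in perfusate by 2.66 in Stat6+/- against Stat6-/- and by 2.36 after OVA. In Epi+ against Stat6-/-, 1 of the 35 striated genes was called higher in lung, against 0.0794% of all features. The same count held in perfusate, against 0.152%. The largest differences in the list were 2.73 in lung and 2.60 in perfusate.

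The question of allergen was addressed in lung by OVA against PBS. Of 52 members tested, 2 fell, Tnnc1 and Myl4, against 0.295% of all features called lower. Tnnc1 read -2.32, -0.91, -1.63, -2.11 and -2.50 after OVA and -0.16, -0.52, -0.70, -0.48 and -0.25 after PBS. Myl4 read -2.86, -1.45, -1.81, -2.94 and -2.17 after OVA and -0.80, -0.67, -0.54, -0.83 and -1.19 after PBS. Neither gene overlapped between the groups, against 3.2% of all features lower without overlap. The differences were -1.47 ± 0.31 (adjusted p = 0.0403) and -1.44 ± 0.32 (0.0483). Both calls were lost in 9 of 10 fits that left out 1 array, all but the one without OVA array 2, and the count was also 0 without OVA arrays 5 and 6, on values not centred and after quantile normalization. Tnnt2 did not overlap either, at -1.17 ± 0.29 (0.0687), nor did Cnn1, a calponin of smooth muscle, at -1.05 ± 0.26 (0.0674), nor Tnnt3, the fast skeletal troponin T, at -1.30 ± 0.49 (0.223). The broadly expressed tropomyosin Tpm3 was higher without overlap, at 0.87 ± 0.26 (0.122), against 4.58% of all features. Popdc2 had -0.27 ± 0.29 (0.691), and Ckm had 0.07. The heart genes had a median of -0.68 with 13 of 15 below 0, and under 17 alternatives this median lay between -0.86 and -0.18. The 5 shared striated genes had one of -0.46, the 13 skeletal genes -0.09 and the 5 smooth muscle genes -0.30, with 4 below 0. Among muscle genes that the rule does not name, 16 of smooth muscle had a median of -0.45 with 12 below 0 and 0 called. The 36 striated ones had a median of -0.24, with 2 called higher and 0 lower. The mean of the heart genes ran from -1.74 to -0.97 after OVA and from -0.75 to -0.53 after PBS. The mean of the endothelial list ran from -1.48 to -0.86 after OVA and from -0.34 to -0.05 after PBS. The 10 genes listed for thymus had a median of 0.77, all above 0, with 0 called. Their mean overlapped between the groups, from -0.84 to 0.30 after OVA and from -1.48 to -0.63 after PBS. Other lists also had medians above 0, among them brown fat (0.56) and cartilage (0.50), with 0 called. The part of these cells was not tested.

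The same contrast was made in perfusate. There a pair of heart genes rose and a calponin fell. Of 52 members tested between IL-13 Stat6+/- and Stat6-/- perfusate, 3 were called, 2 higher and 1 lower, against 1.09% and 1.98% of all features. Myl4 read 1.21, 0.86, 0.97, 0.22 and 0.71 in Stat6+/- and -0.54, -0.17, 0.15, -0.84 and -0.46 in Stat6-/- perfusate. Tnnt2 read -0.27, -1.30, 0.46, -0.95 and 0.39 against -2.37, -2.14, -0.84, -1.87 and -1.34. Myl4 was higher on each Stat6+/- array than on any Stat6-/- array, while Tnnt2 overlapped, and 0.979% of all features were higher without overlap. The differences were 1.17 ± 0.24 (adjusted p = 0.0080) for Myl4 and 1.38 ± 0.31 (0.0153) for Tnnt2, and both were positive in 5 of 5 reference preparations, each of which held 1 array per group. Cnn3, a calponin expressed outside smooth muscle, read -1.63, -1.36, -0.71, -1.58 and -1.35 against -0.26, -0.53, 0.58, 0.08 and -0.33. It fell by 1.24 ± 0.20 (0.0013), in 5 of 5 preparations and without overlap, against 1.41% of all features lower without overlap. Popdc2 and Tnnc1 had -0.10 and -0.25 and were not called. The heart genes had a median of 0.18 with 8 of 14 above 0. Tnnt2 missed the threshold without Stat6-/- array 10 (adjusted p = 0.0592), Stat6+/- array 6 (0.0616) or Stat6+/- array 8 (0.0600). The count of 3 became 1 on values not centred, with only these groups in the fit, or without the arrays low in Y-linked signal. Of 17 alternative fits with limma, Tnnt2 missed the threshold in 6 and Myl4 and Cnn3 in 2 each. The highest adjusted p was 0.235 for Tnnt2, 0.104 for Myl4 and 0.0964 for Cnn3.

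Cnn3 was the 1 member that also fell in Epi+ perfusate against Stat6-/-, by 1.05 ± 0.20 (adjusted p = 0.0186), with 0.322% of all features called lower. Its Epi+ levels were -1.28, -1.98, -0.58, -1.17 and -0.70, all below the lowest Stat6-/- array, against 0.6% of all features. The direction held in 5 of 5 preparations. The call was lost without Stat6-/- array 13, Epi+ array 16 or Epi+ array 17, and also on values not centred, without the block, with only these groups and without the arrays low in Y-linked signal. Myl4 (0.46) and Tnnt2 (0.49) were not called there. Between Stat6+/- and Epi+ perfusate 0 of 52 members were called by limma, with 6 features called in all (0.0379%). At an unadjusted p below 0.05, 3 members and 6.98% of features passed. OVA against PBS perfusate also gave 0 of 52, with 39 features called (0.246%) and, unadjusted, 3 members and 9.2% of features.

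**Figure D3:**
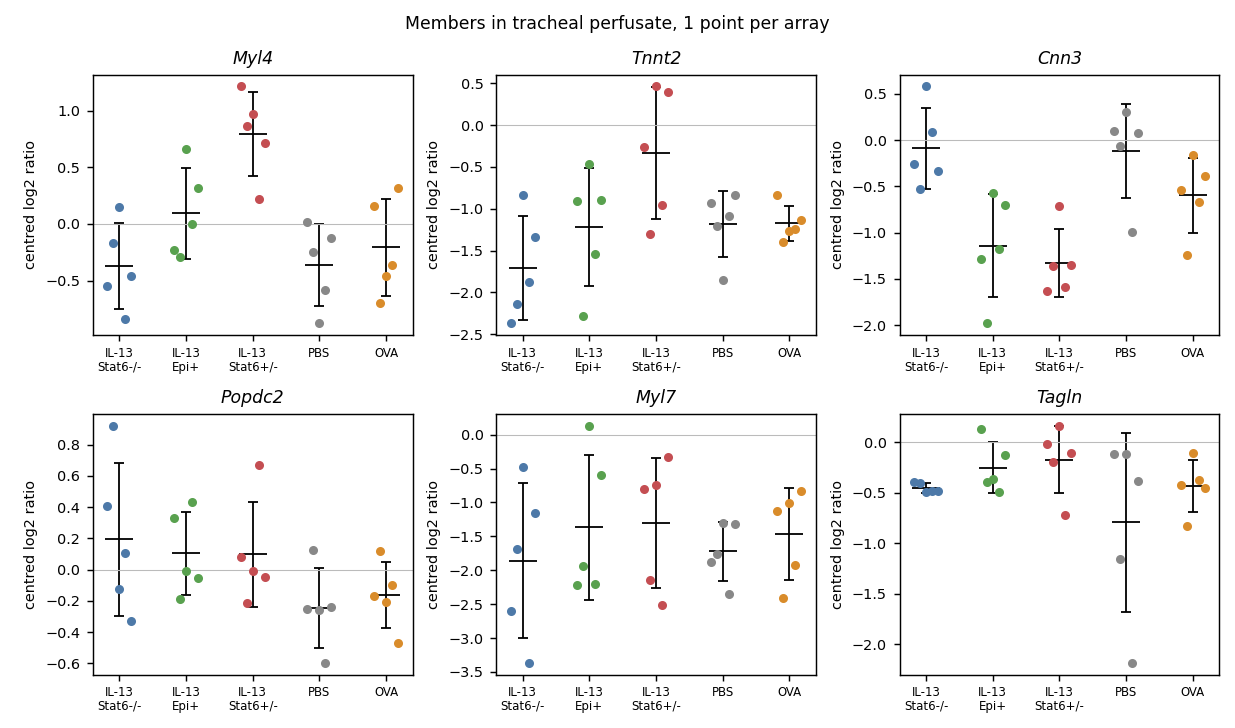
Levels of Myl4, Tnnt2, Cnn3, Popdc2, Myl7 and Tagln (log2 ratio to the reference, centred) in the 5 perfusate groups, with 1 point per array, the bar at the mean and whiskers of 1 SD (n = 5). Myl4 is higher in Stat6+/- than in Stat6-/- perfusate, and Cnn3 is lower in both Stat6+/- and Epi+ than in Stat6-/- perfusate.

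The difference between the tissues in the Stat6+/- against Stat6-/- contrast was tested as an interaction. Of 49 members tested, 5 were called, 4 lower and 1 higher, against 1.32% and 3.17% of all features. Popdc2 (-1.73 ± 0.26, adjusted p = 4.07e-05), Myl4 (-2.69 ± 0.41, 5.55e-05), Tnnt2 (-2.60 ± 0.41, 0.000101) and Myl7 (-2.31 ± 0.59, 0.0182) moved lower in lung than in perfusate, and Cnn3 moved higher (1.01 ± 0.30, 0.0454). The call was lost for Cnn3 in 15 of 20 fits that left out 1 array and for Myl7 without perfusate Stat6-/- array 13. The count was 3 without the block, without the arrays low in Y-linked signal, and without perfusate Stat6-/- array 13. The tissues were processed with and without amplification and against different references, so tissue and processing cannot be told apart.

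**Figure D4:**
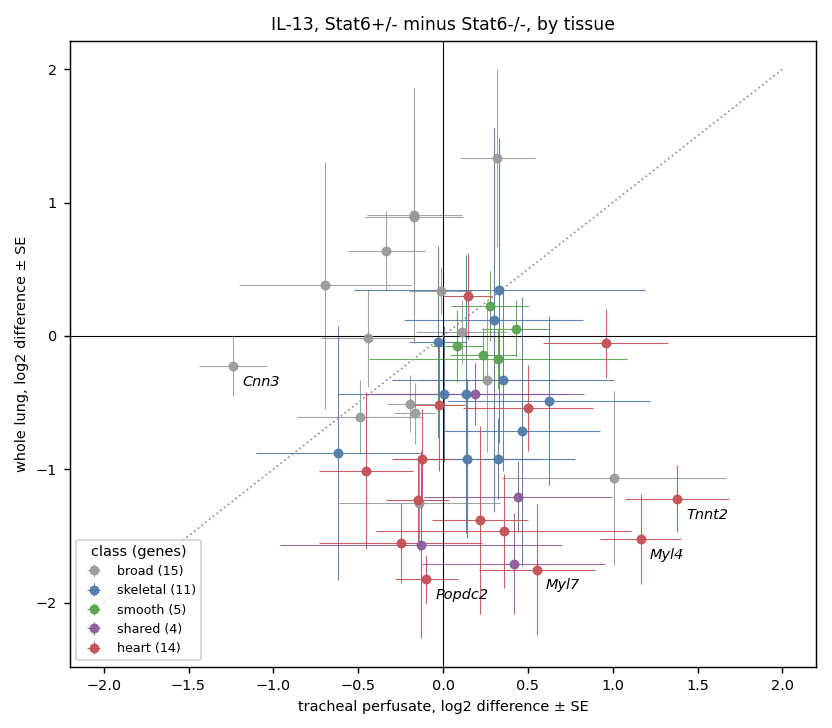
Log2 difference Stat6+/- minus Stat6-/- in perfusate (x axis) and in whole lung (y axis) for each member, coloured by class, with standard errors and a dotted line of equal differences. The 5 named genes differed between the tissues by an interaction test, and Myl4 and Tnnt2 lie above 0 in perfusate and below 0 in lung.

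In perfusate, skeletal muscle genes were high on single arrays. OVA array 31 had the highest level of all perfusate arrays for 7 of 13 skeletal genes and 4 of 5 shared striated genes. It was highest for 1 of 5 smooth muscle, 1 of 15 broadly expressed and 0 of 14 heart genes. The share over all features was not counted. On it Acta1 read 2.28, Myh2 (a fast myosin) 2.33, Tnni2 (the fast troponin I) 2.03 and Ckm 1.55. Des was at 1.68, barely above the next array at 1.67. The skeletal mean was 1.35 there and from -0.91 to 0.78 on the other OVA arrays. Without array 31 the median skeletal difference of OVA against PBS went from 0.38 to -0.11. OVA array 32 was high for other genes, Tnnt3 at 5.53 and Myh6 at 3.08.

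**Figure D5:**
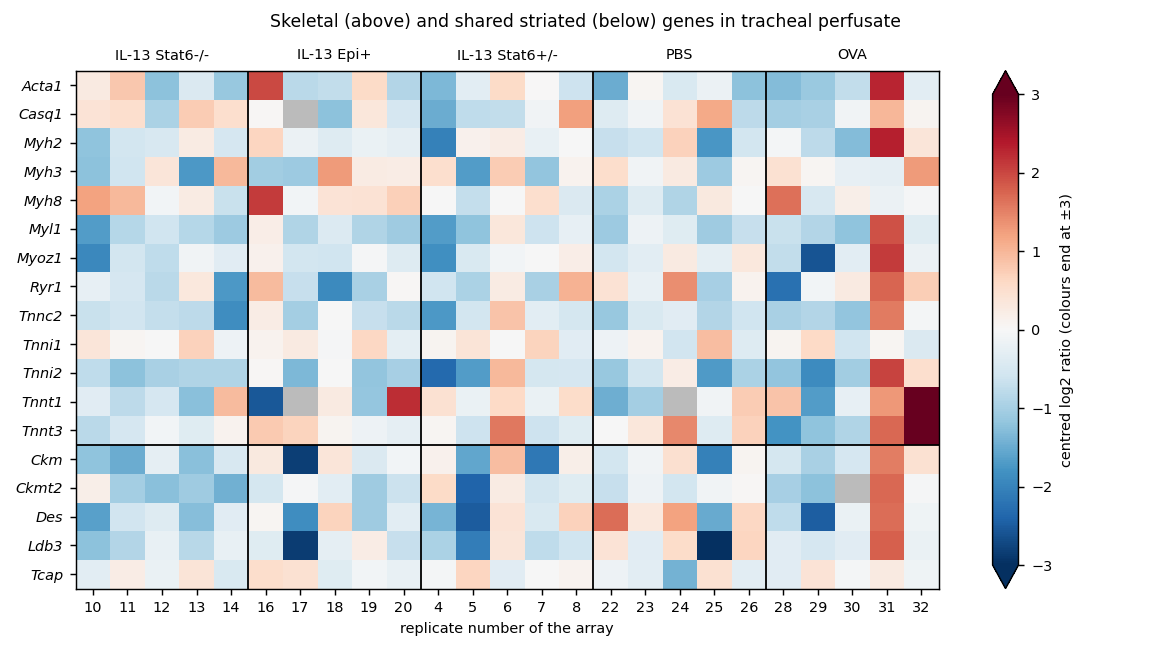
Heat map of levels (log2 ratio to the reference, centred) of the 13 skeletal and 5 shared striated genes on the 25 perfusate arrays, with grey for no value. OVA array 31 stands out, with Acta1 at 2.28 and Tnni2 at 2.03.

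Spots of 1 gene did not always move together. Over lung arrays the spots of Des had a Pearson correlation of 0.851, those of Myh9 0.609, those of Ryr2 0.567, those of Myh14 0.366 and those of Tcap -0.216. The median gap between the spots was 1.58 for Myh9 and 1.06 for Tcap, so single averages of these genes are uncertain. These are descriptions across arrays, with no test. Genes whose deviations from the group means were most like those of Ckm over the 15 IL-13 lung arrays were Cops5, Tcf3 and Ift27 (0.966, 0.966 and 0.962), and for Myl7 they were Naa16 and Enho (0.914 and 0.896), none of them a member. For Tagln they were Bsg and Kif1b (0.973 and 0.957), with the member Tpm1 at 0.953. The difference between reference pools 3 and 4 was not removed from these deviations. For Ckm it was 1.14, so likeness to Ckm may partly follow the pool. Over the 10 OVA and PBS lung arrays other genes came first, Efcab3 for Ckm and Eif3i for Myl7.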

How the data were processed

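Per the deposited files, each array holds 1 log2 ratio per spot, and raised to the power of 2 all were ratios of 3 decimals within a tolerance of 2e-04, the lowest 0.001. Per the labels, channel 1 held a reference and channel 2 the sample. No source used here names the scanner, the background correction or the normalization by the authors. Array medians ranged from -0.96 to 0.30, so each array was centred on its median after the values were seen, although the design had assumed normalized values. Spots of 1 gene were averaged. Gene names came from the platform annotation (19152 spots on 40 arrays, 18240 on 10).

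Differences were fitted with limma 3.58.1 in R 4.3.3, with the reference preparation or pool as a block, on features with at least 3 arrays per group, and adjusted over all features (Benjamini-Hochberg). The fit was tested on simulated data. Values on each array are given for members called in a comparison, those with the widest within-group spread and class-defining genes. The members and gene lists were chosen with earlier results of these data known. The dye bias of single spots could not be checked. Precision is limited by the number of arrays.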

Additional observations from a re-analysis of the deposited data

Results flagged for a closer look

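Within groups of 5 arrays, 245 gene and group pairs among the named members were examined, and on 16 of them (6.5%) the highest or lowest array stood apart from the rest by Dixon's criterion, where chance gives about 1 in 20. In perfusate after OVA, array 31 read 2.28 for Acta1, array 32 read 3.08 for Myh6 and 2.67 for Tnnc1, and array 29 read 0.48 for Myl3. In Epi+ perfusate, array 17 read -2.83 for Ckm, and array 16 read 0.64 for Myh2 and -2.45 for Tnnc1. In the other perfusate groups, Stat6-/- array 10 read 0.18 for Ckmt2, array 13 read -1.10 for Myl12a and array 14 read -1.86 for Tnnc2. Stat6+/- array 4 read -2.03 for Myh2 and PBS array 25 read -1.0 for Cnn3.

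In whole lung, OVA array 6 read -4.50 for Myl3 and -7.34 for Tnnt3. Stat6-/- array 2 read -5.78 for Tnnt3. Stat6+/- array 4 read -9.06 for Tnnc2, at the lowest ratio deposited.

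The change from Stat6-/- to Stat6+/- differed between lung and perfusate for 5 members by the interaction test: by -2.69 for Myl4, -2.60 for Tnnt2, -2.31 for Myl7, -1.73 for Popdc2 and 1.01 for Cnn3.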

How the results depend on the processing

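No called member changed direction under an alternative, but some class medians near 0 did, among them those of heart genes between Epi+ and Stat6-/- lung (0.13, lowest -0.06) and of skeletal genes after OVA in lung (-0.09, highest 0.58) and in perfusate (0.38, lowest -0.11). In lung the 7 calls between Stat6+/- and Stat6-/- ranged from 5 to 9 when 1 array was left out, and numbered 2 without the reference block or the arrays low in Y-linked signal and 1 with the replicate block or with only these groups. The 6 calls against Epi+ ranged from 5 to 7, and numbered 3 not centred, 2 with only these groups, and 1 after quantile normalization, without the reference block or with the replicate block. The 2 calls after OVA ranged from 0 to 3, and numbered 4 with a value on every array, 1 with 2 arrays per group or spots not averaged, and 0 not centred, after quantile normalization, with the replicate block, with arrays scaled to 1 spread and without OVA arrays 5 and 6, the last pair of settings chosen after seeing the data. In perfusate the 3 calls ranged from 2 to 4, and numbered 1 not centred, with only these groups or without arrays low in Y-linked signal. The 1 call in Epi+ ranged from 0 to 1, and was 0 not centred, without the block, with only these groups or without those arrays. The 5 tissue differences ranged from 3 to 7, and numbered 3 without the block or those arrays. Comparisons with 0 calls kept 0. The causes were not tested. Replicate numbers did not pair the lung samples (correlations of same-numbered arrays from -0.577 to 0.402). Perfusate groups share no replicate numbers, and their arrays were matched by reference preparation, the block of the fit.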
